A study of Mus musculus with 24 samples.

Results

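The upper dose step of interferon (IFN) beta in ID8 cells sets 3 samples treated with 1000 IU/ml (replicates 1, 2 and 3) against 2 samples treated with 100 IU/ml (replicates 1 and 2). These are 5 of the 24 samples of the series, chosen by their titles and paired by replicate number for replicates 1 and 2. The submitters' labels exclude the third 100 IU/ml sample because its interferon-stimulated genes were unusually strongly induced, and it was left out. The 100 IU/ml group was thus narrowed by the kind of measurement compared here, which bears on every difference between the doses and on their lack of overlap. ID8 is a mouse ovarian cancer line that was grown from ovarian surface epithelium, and it was studied here as a single line in culture. The labels name no genetic change in either group. Both were plated at 150000 cells per well in medium with 4% foetal calf serum and received recombinant mouse IFN beta after 24 h. RNA was taken 3 h later and 100 ng was labelled for a single-colour expression array. The other samples used for reference are cells given the vehicle PBS, called untreated below, cells given 10 IU/ml IFN beta, and cells given the same 3 doses of recombinant mouse IFN epsilon, a type I interferon of the female reproductive tract. The submitters made their biological replicates on separate dates, so that a replicate number marks a date, and they merged the technical replicates of a treatment before the measurement.

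IFN beta is a type I interferon, which many cells release when they sense a virus. It binds a receptor made of the chains Ifnar1 and Ifnar2, and the kinases on that receptor activate transcription factors of the Stat family. Together with Irf9 these form a complex that binds the interferon-stimulated response element (ISRE) in promoters, while other Stat complexes bind a different element, the gamma-activated site (GAS). The genes that respond include antiviral effectors, sensors of viral nucleic acid, the machinery that shows peptides on MHC class I, and inhibitors such as Usp18 and Socs1 that limit the signal.

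The 9 promoter stretches below are shown because their genes cover the range of the dose step, from some of the largest rises (Gm12250, Gbp5) to genes that missed the threshold (Socs1, B2m), and because each holds a match to an interferon element. Each is the 150 bases before the RefSeq gene start, written 5′ to 3′ on the gene's strand, with coordinates in GRCm38.p6. Capitals mark matches to the ISRE core GAAANNGAAA on either strand (TTTCNNTTTC on the opposite one) or to the GAS motif TTCNNNGAA, which reads the same on both strands. In Gm12250 and Gbp5 the capitals TTCTCAGAA are the GAS match, and all other capitals are ISRE matches.
Gm12250, chr11:58183693-58183842, plus strand: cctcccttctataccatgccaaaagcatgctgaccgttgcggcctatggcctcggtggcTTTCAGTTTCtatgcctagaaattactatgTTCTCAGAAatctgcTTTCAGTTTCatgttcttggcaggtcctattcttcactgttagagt
Gbp5, chr3:142496784-142496933, plus strand: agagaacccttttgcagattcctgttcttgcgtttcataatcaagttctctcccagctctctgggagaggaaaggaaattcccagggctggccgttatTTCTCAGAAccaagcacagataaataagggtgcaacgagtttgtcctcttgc
Rsad2, chr12:26456453-26456602, minus strand: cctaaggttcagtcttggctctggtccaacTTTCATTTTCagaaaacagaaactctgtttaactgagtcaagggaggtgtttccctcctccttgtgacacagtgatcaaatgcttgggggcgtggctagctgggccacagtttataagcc
Ifit3, chr19:34583379-34583528, plus strand: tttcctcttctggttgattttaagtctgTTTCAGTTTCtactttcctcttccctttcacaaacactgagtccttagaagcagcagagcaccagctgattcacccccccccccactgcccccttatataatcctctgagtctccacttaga
Gbp2, chr3:142620513-142620662, plus strand: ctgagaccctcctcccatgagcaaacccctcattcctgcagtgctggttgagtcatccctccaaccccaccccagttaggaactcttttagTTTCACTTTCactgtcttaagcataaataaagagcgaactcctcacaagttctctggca
Ifit1, chr19:34640739-34640888, plus strand: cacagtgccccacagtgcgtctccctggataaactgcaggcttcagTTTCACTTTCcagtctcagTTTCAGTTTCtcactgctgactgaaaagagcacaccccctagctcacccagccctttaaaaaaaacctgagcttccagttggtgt
Socs1, chr16:10785537-10785686, minus strand: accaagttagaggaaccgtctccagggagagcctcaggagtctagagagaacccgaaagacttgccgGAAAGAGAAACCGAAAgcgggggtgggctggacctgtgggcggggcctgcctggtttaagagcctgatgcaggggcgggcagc
Isg15, chr4:156200819-156200968, minus strand: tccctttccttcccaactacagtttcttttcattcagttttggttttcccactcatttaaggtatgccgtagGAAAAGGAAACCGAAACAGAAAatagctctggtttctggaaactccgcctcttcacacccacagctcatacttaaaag
B2m, chr2:122147537-122147686, plus strand: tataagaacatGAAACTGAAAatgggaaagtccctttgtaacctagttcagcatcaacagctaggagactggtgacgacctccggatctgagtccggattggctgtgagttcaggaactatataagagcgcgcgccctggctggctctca

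RefSeq windows were found for 95 of the 121 genes that were higher at 1000 than at 100 IU/ml, a count that is described further down. In the 250 bases before the start, the ISRE core was present in 37 of the 95 (38.9%), against 352 of the 11421 tested genes with a window (3.08%). The GAS motif was present in 12 of the 95 (12.6%) and in 830 of the 11421 (7.27%), and both motifs together in 9 and 51. Among the 95, the log2 difference between 1000 and 100 IU/ml had a median of 2.57 (0.81 to 5.61) in the 37 genes with the ISRE core and of 1.43 (0.49 to 3.98) in the 58 without it. For the GAS motif the medians were 1.70 in the 12 genes with it and 1.73 in the 83 without it. A gene with several RefSeq starts was counted if any of its windows held the motif, and the window with the most matches is the one shown. A match is a string of letters and not a measured binding site. The windows of Ifit3b, Tnfsf10, Cmpk2, Cxcl10, Psmb9 and Tap1 had no match in the 150 bases before the start. The counts above cover 250 bases, so these genes can still hold a match farther out and be among those counted.

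Levels are log2 of the array's background-subtracted intensity minus the 75th percentile of that array, and a negative level lies below that percentile. Differences between doses are log2 differences ± SE from limma, fitted over 19 samples in 7 groups with the replicate number as a block, and a gene is called if its p, adjusted by the method of Benjamini and Hochberg, is under 0.05. The 75th percentile of intensity was 1201, 1032 and 727.6 on the arrays of 1000 IU/ml and 1117 and 1172 on those of 100 IU/ml, and 50.03% to 53.9% of probes were well above background on these 5 arrays. All 11 measured ovarian epithelial and mesothelial markers (of 12; Pax8 was not kept) were well above background on all 5 arrays. Of 9 leukocyte markers 5 were kept, all 5 well above background on all 5 arrays, and 0 of these were called. Ptprc, Adgre1 and Lyz2 were among those not kept. Of 9 endothelial, fibroblast and adipocyte markers, 7 were kept, all 7 well above background on all 5 arrays, and 0 were called. Markers were kept by this same detection, so detection of the kept ones is nearly fixed and does not compare the lists. Their levels differed: the median ovarian marker lay at 4.67 to 5.04 on these 5 arrays. The median leukocyte marker lay at -1.62 to -1.26, and that of the endothelial, fibroblast and adipocyte list at -0.37 to 0.24.

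The step to 1000 IU/ml raised 121 genes and lowered 3. Limma tested 14425 genes, so that 0.839% were called higher and 0.0208% lower. Of the 121, 105 rose at least 2-fold, 56 at least 4-fold and 23 at least 8-fold. Their log2 differences ran from 0.49 to 6.59 with a median of 1.82, while the median of all tested genes was -0.04. For each of the 121, every 1000 IU/ml sample lay above both 100 IU/ml samples, an order found for 7.01% of all tested genes. Every one of them was also higher at 1000 IU/ml within replicate 1 and within replicate 2, against 22.5% of all genes. Both orders are nearly fixed by calling the genes on these same samples, so they are a description and no support. The median difference over the 121 was 1.43 within replicate 1 and 1.79 within replicate 2. Arrays of bulk RNA cannot tell a larger number of responding cells from more RNA per cell. The 2 samples of replicate 2 were on the same slide, so their difference is also free of differences between slides, and those of replicate 1 were on different slides.

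**Figure D1:**
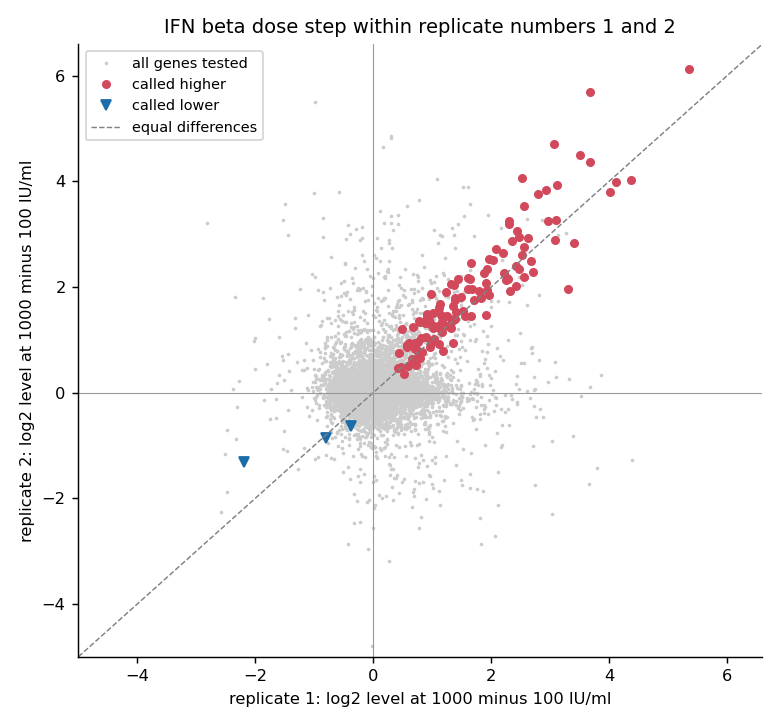
Log2 level at 1000 minus 100 IU/ml IFN beta in replicate 1 (x axis) and in replicate 2 (y axis), 1 point per gene. Small grey points are the 14425 genes tested, red circles the 121 called higher and blue triangles the 3 called lower, and the dashed line marks equal differences. All 121 red points lie above 0 on both axes.

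The count rested on few samples. Without the 100 IU/ml sample of replicate 1, limma called 0 genes (721 had an unadjusted p under 0.05, which is also the number that chance gives). Without that of replicate 2 it called 330, of which 74 were among the 124. Without the 1000 IU/ml sample of replicate 1 the count was 268, with 123 of the 124 among them. Adding the slide as a second block left 15 genes, a fit without the replicate block gave 67, and testing also the dim probes gave 79. A fit to the 2 IFN beta groups alone, which leaves 1 degree of freedom for the spread, called 0 (820 at an unadjusted p under 0.05), and including the arrays that the labels exclude also gave 0 (357). The direction of all 124 genes was the same under each of these settings. The settings share most samples with the call, so this is a description and no support. The 1000 IU/ml sample of replicate 3 has no partner at 100 IU/ml in the fit, and it was the highest of the 3 for 114 of the 121 genes. Its array also had the lowest 75th percentile of the 5 arrays (727.6). This was shared by replicate 3 in all groups, with 619.3 to 816.9 on its arrays, against 936.5 to 1201 on those of replicates 1 and 2. The part of this in the result was not tested. Without replicate 3 in every group the count was 137, of which 98 were among the 124.

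Antiviral effectors were the list with the most called genes. The counts of this list and of those below stand beside the 0.839% of all tested genes that were called higher. Of 47 measured members (of 53), 33 rose and 0 fell, with a median log2 difference of 1.55 that became 0.88 with the excluded arrays included. Within replicates 1 and 2 the list's median was 1.30 and 1.39. Relative to untreated cells of the same replicate number, the median member was 2.52, 2.94 and 3.37 higher in the 1000 IU/ml samples and 1.14 and 1.33 higher in the 100 IU/ml samples, so that the doses did not overlap. Ifit1bl1, a relative of the RNA-binding Ifit proteins, had levels of -1.78, 0.59 and 3.89 at 1000 IU/ml, against -5.45 and -5.09 at 100 IU/ml. Its log2 difference was 5.61 ± 0.93 (adjusted p = 0.0151), and it was well above background on 0 of 6 untreated arrays. Rsad2 (viperin), which makes a chain-terminating nucleotide, had levels of 0.82, 4.31 and 5.66 at 1000 IU/ml, against -2.25 and -0.39 at 100 IU/ml. The 1000 IU/ml samples were far apart, with replicate 1 the lowest, but did not overlap with those of 100 IU/ml (4.37 ± 0.80, adjusted p = 0.0247).

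The excluded array of 100 IU/ml, from the third date, differs from this order. Its median antiviral gene was 3.27 above the untreated sample of that date, 44 of the 47 genes were above every untreated sample, and the 1000 IU/ml sample of that date exceeded it by a median of 0.09. The array of 10 IU/ml from the same date, excluded as well, had a median of 3.00. In the other 100 IU/ml samples 41 and 38 of the 47 genes were above every untreated sample. This count thus sets the excluded array less apart than its median does, and it was not taken over all tested genes.

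**Figure D2:**
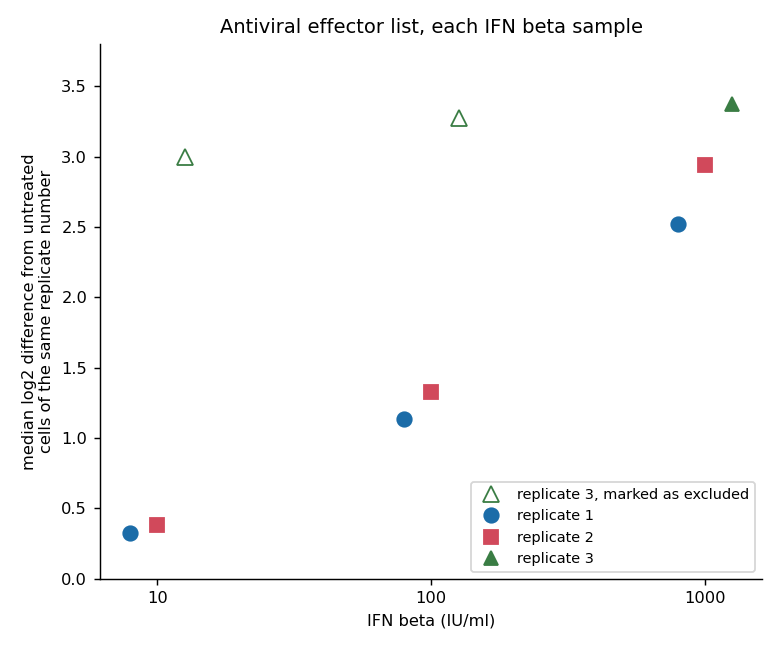
Median log2 difference of the 47 antiviral effectors from untreated cells of the same replicate number (y axis) in each sample at 10, 100 and 1000 IU/ml IFN beta (x axis). Symbols give the replicate number and open triangles are the excluded arrays. Replicates 1 and 2 lie at 0.33 and 0.38 at 10 IU/ml, at 1.14 and 1.33 at 100 IU/ml and at 2.52 and 2.94 at 1000 IU/ml, while the open triangles are at 3.00 and 3.27.

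**Figure D3:**
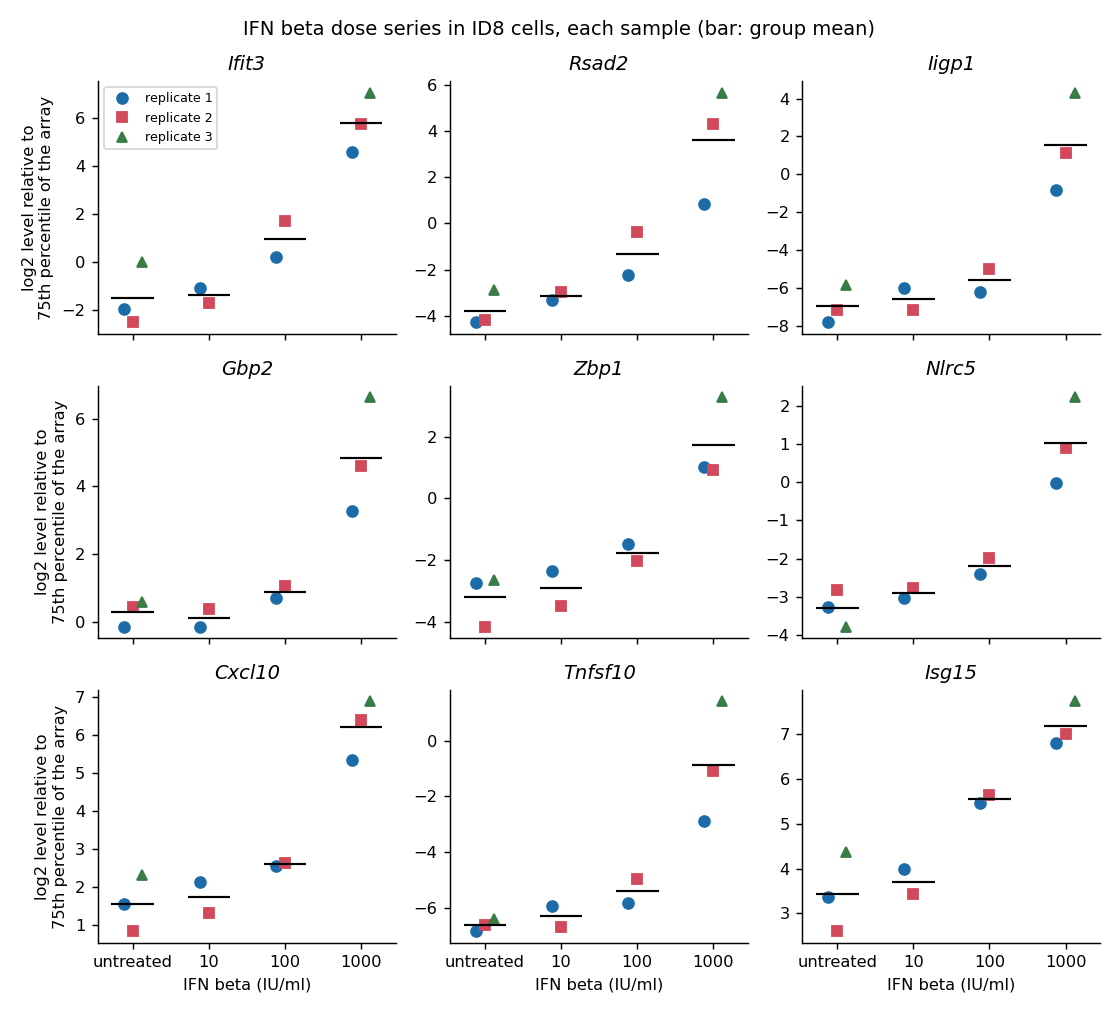
Log2 levels of 9 genes, relative to the array's 75th percentile (y axis), in untreated cells and at 10, 100 and 1000 IU/ml IFN beta (x axis). Each symbol is a sample, its shape gives the replicate number, and the bar is the group mean. In all 9 panels every 1000 IU/ml sample lies above every 100 IU/ml sample, and replicate 3 is the highest of the 1000 IU/ml samples. All 9 are called genes, so the order of the doses is nearly fixed by their choice.

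Ifit3, which works in a complex with Ifit1 to bind foreign RNA, had levels of 4.58, 5.73 and 7.05 at 1000 IU/ml, against 0.20 and 1.70 at 100 IU/ml. Its log2 difference was 4.22 ± 0.59 (adjusted p = 0.00554). The probe of its near-identical copy Ifit3b gave 4.21 ± 0.58, and the array cannot separate these copies with certainty. Ifit1 itself reached 3.85, 5.32 and 5.93 at 1000 IU/ml, against 0.76 and 2.44 at 100 IU/ml (3.00 ± 0.48, adjusted p = 0.0119), and both its ISRE matches are shown above. Cmpk2, a mitochondrial nucleotide kinase encoded beside Rsad2, had levels of 2.14, 3.87 and 5.33 at 1000 IU/ml, against -0.97 and -0.07 at 100 IU/ml (3.97 ± 0.58, adjusted p = 0.00707). Oas2, which makes the messenger that activates RNase L, had levels of 2.84, 2.73 and 3.21 at 1000 IU/ml and of 0.53 and 0.80 at 100 IU/ml, with little spread at either dose (2.42 ± 0.37, adjusted p = 0.00909). Isg15, whose promoter stretch has 3 overlapping ISRE matches, encodes a ubiquitin-like modifier. Its levels were 6.80, 7.0 and 7.74 at 1000 IU/ml and 5.47 and 5.65 at 100 IU/ml, and it rose by 1.34 ± 0.27 (adjusted p = 0.0399). The difference was above 0 in 46 of the 47 measured effectors, against 40.3% of all genes, and Ifi27 was the exception (-0.16).

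The interferon-inducible GTPases, which coat and break the vacuoles of intracellular pathogens, had the largest median. Of 16 measured members (of 19), 13 rose and 0 fell, and the list's median log2 difference was 2.56. All 16 had no overlap between the doses, against 7.01% of all tested genes with every 1000 IU/ml sample higher. For the 13 called genes this order is nearly fixed by their choice. Iigp1 (Irga6), a member of the immunity-related GTPases, had the largest difference of any gene. Its levels were -0.86, 1.11 and 4.32 at 1000 IU/ml, against -6.21 and -5.01 at 100 IU/ml, a log2 difference of 6.59 ± 0.87 (adjusted p = 0.00483). It was well above background on all 3 arrays of 1000 IU/ml, on 1 of 2 of 100 IU/ml and on 0 of 6 of untreated cells, so its size depends on signals near the detection limit. Over the alternative settings the difference ran from 3.92 to 7.47.

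Among guanylate-binding proteins, Gbp5, which supports inflammasome assembly, had levels of -0.34, 0.98 and 3.54 at 1000 IU/ml and of -3.83 and -3.51 at 100 IU/ml (4.63 ± 0.63, adjusted p = 0.00544). Its promoter stretch above holds the GAS motif and no ISRE core. Gbp2, which recruits other defence proteins to pathogen vacuoles, had levels of 3.27, 4.60 and 6.64 at 1000 IU/ml and of 0.71 and 1.06 at 100 IU/ml (3.55 ± 0.50, adjusted p = 0.00554). Gbp4 rose by 3.62 ± 0.73 (adjusted p = 0.0422). The probes of this family may share signal, so that single members are uncertain, but 7 of the 9 tested Gbp genes rose and the lowest of the 9 differences was 1.79.

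**Figure D4:**
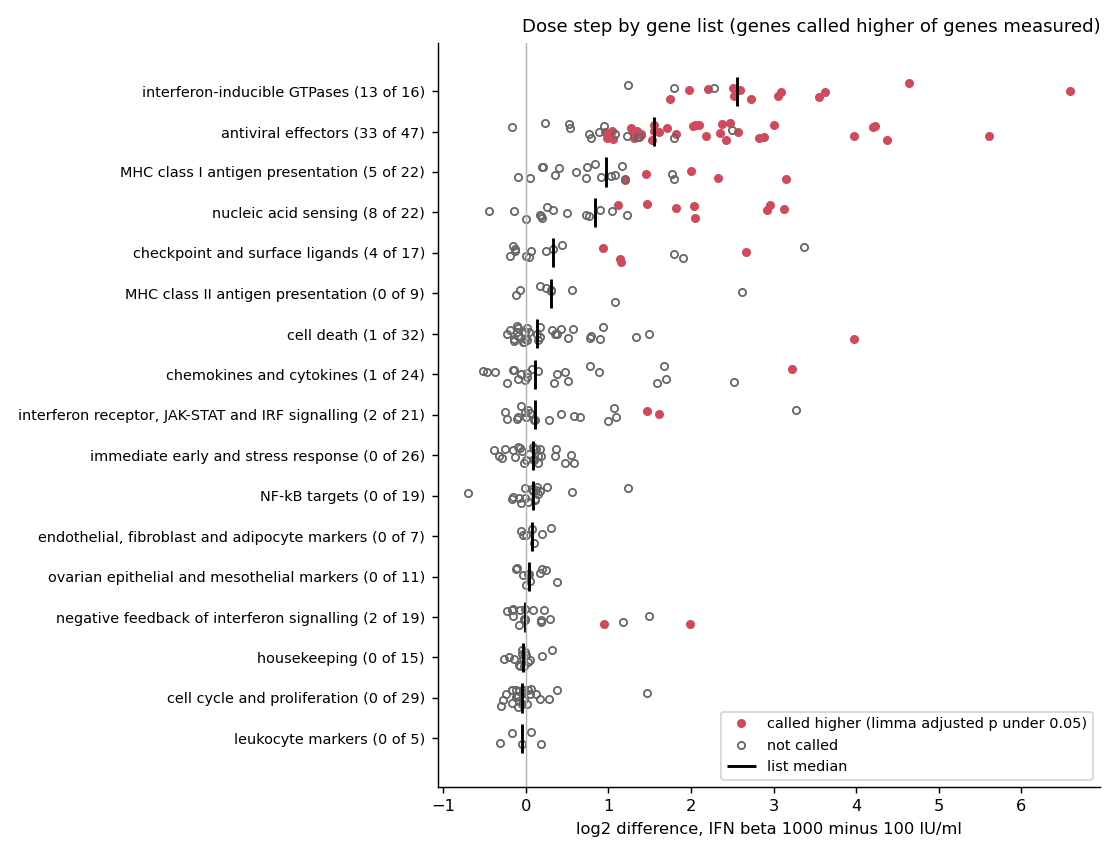
Log2 difference between 1000 and 100 IU/ml IFN beta (x axis) for the measured members of 17 gene lists (rows, ordered by their median). Filled red points are genes called higher, open points genes not called, vertical bars list medians, and the row names give called of measured members. GTPases, antiviral effectors, MHC class I and nucleic acid sensing have medians above 0.8, and the other lists lie below 0.4.

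Of 22 measured sensors of nucleic acid and their partners, 8 rose and 0 fell, with a median of 0.83. Zbp1, which binds left-handed nucleic acid and can start necroptosis, had levels of 1.02, 0.91 and 3.28 at 1000 IU/ml, against -1.46 and -2.04 at 100 IU/ml (3.13 ± 0.45, adjusted p = 0.0058). Mndal, an Ifi200 family protein that binds DNA, rose by 2.95 ± 0.51, and Tlr3, the endosomal receptor for double-stranded RNA, by 2.91 ± 0.49 (adjusted p = 0.0175 and 0.016). Tlr3 had levels of -1.93, -1.08 and 0.08 at 1000 IU/ml and of -4.46 and -3.69 at 100 IU/ml. The 2 kept probes of Tlr3 differed by 1.80 and 2.91, and 1 of them was called when tested singly. Dhx58 (LGP2), which tunes the cytosolic RNA sensors, had levels of 1.34, 1.37 and 2.12 at 1000 IU/ml and of -0.46 and -0.55 at 100 IU/ml (2.03 ± 0.26, adjusted p = 0.00474). The cytosolic DNA pathway genes Cgas (0.77, adjusted p = 0.184) and Sting1 (0.26, adjusted p = 0.743) were not called.

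In MHC class I antigen presentation 5 of 22 measured members rose and 0 fell, with a median of 0.97. Of the 22, 15 had every 1000 IU/ml sample above both 100 IU/ml samples, against 7.01% of all tested genes. Nlrc5, which drives transcription of MHC class I genes, had levels of -0.03, 0.88 and 2.22 at 1000 IU/ml, against -2.39 and -1.98 at 100 IU/ml (3.15 ± 0.48, adjusted p = 0.00919). Its 2 kept probes differed by 1.41 and 3.15, and 1 of them was called when probes were tested singly. Psmb9, a catalytic subunit of the immunoproteasome, rose by 2.32 ± 0.44 (adjusted p = 0.0291) and had levels of 1.69, 2.32 and 3.49 at 1000 IU/ml and of 0.26 and 0.16 at 100 IU/ml. Tap1, a subunit of the transporter that carries peptides into the endoplasmic reticulum, had levels of 2.32, 2.88 and 4.03 at 1000 IU/ml and of 0.95 and 0.84 at 100 IU/ml (2.00 ± 0.34, adjusted p = 0.0161). Psmb9 and Tap1 lie head to head on chromosome 17, and their windows overlap. The class I heavy chain H2-K1 (1.03 ± 0.21, adjusted p = 0.0544, with no value in the 1000 IU/ml sample of replicate 2) missed the threshold. With the mean of its probes the difference was 0.54 (limma adjusted p = 0.631), while 4 of 20 alternative settings called it. The light chain B2m had levels of 5.89, 6.01 and 6.35 at 1000 IU/ml and of 5.34 and 5.61 at 100 IU/ml. These did not overlap, but the difference missed the threshold as well (0.60 ± 0.13, adjusted p = 0.0685).

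Few genes of the signalling pathway itself were called. Of 21 measured members of the receptor, JAK-STAT and IRF list, 2 rose, 0 fell and the median was 0.10. Irf7, a factor that amplifies interferon production, had levels of 5.93, 6.27 and 6.98 at 1000 IU/ml and of 4.80 and 4.58 at 100 IU/ml (1.47 ± 0.26, adjusted p = 0.0212). Stat2 (1.07 ± 0.26, adjusted p = 0.116) and Irf9 (0.28 ± 0.17, adjusted p = 0.558) were not called. The receptor chains Ifnar1 (0.01 ± 0.12) and Ifnar2 (0.10 ± 0.09) had differences near 0 with adjusted p of 0.988 and 0.704, and their sign turned in some alternative settings.

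Negative feedback had 2 called members of 19, both higher, and a median of -0.01. Usp18, which removes Isg15 from proteins and blocks signalling at Ifnar2, had levels of 4.25, 4.98 and 5.63 at 1000 IU/ml, against 2.29 and 3.14 at 100 IU/ml (1.99 ± 0.33, adjusted p = 0.016). Usp25, another deubiquitinase, rose by 0.95 ± 0.17 (adjusted p = 0.0234). Socs1, which inhibits the receptor's kinases, had levels of -1.35, 0.26 and 2.44 at 1000 IU/ml and of -1.59 and -1.38 at 100 IU/ml. The wide spread at 1000 IU/ml left its difference of 1.49 ± 0.57 short of the threshold (adjusted p = 0.379).

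Among secreted and surface proteins, few genes were called. Cxcl10, a chemokine that draws activated T cells, was the only called gene of 24 measured chemokines and cytokines. Its levels were 5.35, 6.39 and 6.89 at 1000 IU/ml, against 2.55 and 2.64 at 100 IU/ml (3.22 ± 0.48, adjusted p = 0.00811). The related Cxcl9 was well above background on 1 of 3 arrays of 1000 IU/ml and on 0 of 2 of 100 IU/ml, and it was not called (adjusted p = 0.397). With the main scaling its mean gave a lower bound of 1.65-fold. That bound takes no account of the spread between samples, so it does not establish a rise. Tnfsf10 (TRAIL), a ligand that triggers apoptosis, was the only called gene of 32 in the cell death list. It had levels of -2.89, -1.11 and 1.40 at 1000 IU/ml, against -5.83 and -4.94 at 100 IU/ml (3.98 ± 0.70, adjusted p = 0.0212), and was well above background on 0 of 6 untreated arrays.

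Of 17 checkpoint and surface ligands, Ly6a, Lgals9, Ly6e and Lgals3bp rose. Ly6a (Sca-1), a surface protein of stem and progenitor cells, differed by 2.67 ± 0.50 (adjusted p = 0.0277), with levels of -3.54, -3.23 and -0.40 at 1000 IU/ml and of -5.41 and -5.50 at 100 IU/ml. Lgals9, a galectin that binds inhibitory receptors, rose by 1.15 ± 0.21, and Ly6e, a surface protein that restricts some viruses, by 1.14 ± 0.21 (adjusted p = 0.025 and 0.0259). Cd274 (PD-L1), the ligand of the checkpoint receptor PD-1, had levels of -1.24, 1.91 and 4.06 at 1000 IU/ml and of -2.85 and -1.99 at 100 IU/ml. Every 1000 IU/ml sample was higher, but with this spread its difference of 3.36 ± 0.94 was not called (adjusted p = 0.177).

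No member was called in MHC class II antigen presentation (9 measured), NF-kB targets (19), immediate early and stress response (26), cell cycle and proliferation (29) or housekeeping (15). At an unadjusted p under 0.05 these lists had 2, 2, 3, 3 and 1 members, beside 1542 of all 14425 genes (10.7%), and their medians lay between -0.05 and 0.31.

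The 3 genes called lower had small differences or dim probes, and their calls depended on the setting. Gm30906, Carf and Ndrg3 lost their call in 13, 12 and 15 of 20 alternative settings, among them the deposited table of log2 values (limma adjusted p = 0.449, 0.231 and 0.201), and kept their sign in all 20. Rises lost calls as well: Isg15 in 13 of the 20 settings, Rsad2 and Ccrl2 in 11, and Iigp1 and Gbp5 in 5. In the deposited table Ly6a, Ccrl2 and Gm7609 were not called either (limma adjusted p = 0.123, 0.0693 and 0.133). Ndrg3, a member of the N-myc downstream-regulated family, had levels of 1.47, 1.07 and 1.40 at 1000 IU/ml and of 1.84 and 1.70 at 100 IU/ml (-0.51 ± 0.10, adjusted p = 0.0277). Carf, a calcium-responsive transcription factor, differed by -0.81 ± 0.12 (adjusted p = 0.00842), but its probe was well above background on only 2 of 3 arrays of 1000 IU/ml and its second probe had a difference of the other sign. The predicted gene Gm30906 was not well above background on any of the 3 arrays of 1000 IU/ml and was on both of 100 IU/ml. With the main scaling it was at least 1.53-fold lower (adjusted p = 0.0247), and its log2 difference ran from -1.88 to -0.20 over the alternative settings. For all 3 genes called lower the doses did not overlap. This order was found for 5.86% of all genes in this direction and, again, is nearly fixed by the choice of called genes.

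Of the 15 largest rises, 5 were of genes in none of the lists. Gm12250 (Irgb10), a GTPase that targets bacterial membranes, was not well above background on either array of 100 IU/ml. With the main scaling it was at least 26.6-fold higher at 1000 IU/ml (adjusted p = 0.0234). Over the alternative settings its log2 difference ran from 2.54 to 5.66, and it lost its call in 9 of 20. Gm4951, a predicted GTPase, had levels of -3.20, -1.63 and 0.03 at 1000 IU/ml and of -7.21 and -5.43 at 100 IU/ml, where it was well above background on 1 of 2 arrays (4.50 ± 0.62). Phf11b differed by 4.00 ± 0.73, and its relatives Phf11a, Phf11c and Phf11d were called as well. Gm7609, a predicted gene, was not well above background at 100 IU/ml. With the main scaling it was at least 6.26-fold higher at 1000 IU/ml (adjusted p = 0.0175). Its log2 difference ran from 1.12 to 4.33 over the alternative settings, and it lost its call in 7 of 20. Ccrl2, an atypical receptor for the attractant chemerin, had levels of -2.87, -0.86 and 1.72 at 1000 IU/ml and of -5.18 and -4.11 at 100 IU/ml (3.59 ± 0.74, adjusted p = 0.0455).

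The levels along the dose series are given here for single genes, and no difference between their upper and lower steps was called. Isg15 had levels of 3.36, 2.59 and 4.37 in untreated cells, 4.00 and 3.42 at 10 IU/ml, 5.47 and 5.65 at 100 IU/ml and 6.80, 7.0 and 7.74 at 1000 IU/ml. Its step between 10 and 100 IU/ml was 1.85 ± 0.29, beside 1.34 ± 0.27 for the step between 100 and 1000 IU/ml. Usp18 (2.38 ± 0.36 for the lower step and 1.99 ± 0.33 for the upper one) and Irf7 (1.64 ± 0.28 and 1.47 ± 0.26) had the same order, while Ifit1 had lower and upper steps of 2.77 ± 0.52 and 3.00 ± 0.48. Ly6e had levels of 4.39, 4.44 and 4.40 in untreated cells, 4.08 and 4.37 at 10 IU/ml, 4.30 and 4.40 at 100 IU/ml and 5.28, 5.33 and 6.24 at 1000 IU/ml. Its levels exceeded those of untreated cells only at 1000 IU/ml. Ccrl2 (lower step 0.04 ± 0.79), Mndal (0.16 ± 0.54) and Ly6a (-0.18 ± 0.54) likewise had lower steps within their errors. Of the 121 genes, 31 had a lower step under 0.3, and their median lower step was 0.77. Over all tested genes the 75th percentile of the lower step was 0.08, so most genes lay under 0.3.

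The difference between the upper and the lower step was tested in the same fit. The 2 steps share the 100 IU/ml samples, so an error in those samples moves them in opposite directions. Limma called 0 genes (0% of those tested), 573 had an unadjusted p under 0.05, and the smallest adjusted p was 0.99. The upper step was the larger one in 115 of the 121 genes and in 47.2% of all genes, with a median difference of 0.99 over the 121. These genes were chosen by their upper step, which favours this order, so it is a description. Without the 100 IU/ml sample of replicate 2 the count was 230 (171 with a difference above 0 and 59 below), and after median scaling it was 3, all 3 with a difference below 0. Over all tested genes the 95% confidence interval of this difference reached a median of 0.504 to either side, and the widest reached 12.6. For the genes with SEs of both steps given above, it was wider than that median. The lack of calls therefore does not show equal steps in those genes. Against untreated cells, limma called 41 genes higher at 100 IU/ml (0.284%) and 393 at 1000 IU/ml (2.72%), and 0 and 69 lower. The doses have 2 and 3 samples, so these counts also differ in precision. For the antiviral list, the median difference from untreated cells was 0.39 at 10, 1.32 at 100 and 2.98 at 1000 IU/ml IFN beta, and the median lower and upper steps were 0.86 and 1.55. For the GTPases the 2 medians were 1.12 and 2.56, and for MHC class I antigen presentation 0.22 and 0.97.

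The same 10-fold step of IFN epsilon shares no sample with that of IFN beta, and its groups have 3 samples each. In the 121 genes the IFN beta step had a median of 1.82, against 0.57 for the IFN epsilon step, and it was the larger of the 2 in all 121 (43.7% of all genes). Since these genes were chosen by their IFN beta step, this order is a description. The step of IFN epsilon was above 0 in 120 of them, beside a median of -0.01 over all tested genes. The exception was Tph1, an enzyme of serotonin synthesis that was not well above background on any array of these IFN epsilon doses. For the IFN epsilon step itself limma called 2 genes higher (0.0139%), and 1729 genes had an unadjusted p under 0.05. Limma called 0 genes (0%) in the test of the difference, 682 had an unadjusted p under 0.05, and the smallest adjusted p was 0.326. Over all tested genes the 95% confidence interval of this difference reached a median of 0.369 to either side, and the widest reached 9.22. For the genes with SEs of this difference given below, it was wider than that median. The count was 93 (78 with a difference above 0 and 15 below) without the 100 IU/ml IFN beta sample of replicate 2, and 2, both above 0, without the 1000 IU/ml IFN beta sample of replicate 3. It was 3 without the 1000 IU/ml IFN epsilon sample of replicate 1 and again 3 without that of replicate 2, all with a difference below 0. After median scaling it was 6, of which 5 were above 0 and 1 below.

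**Figure D5:**
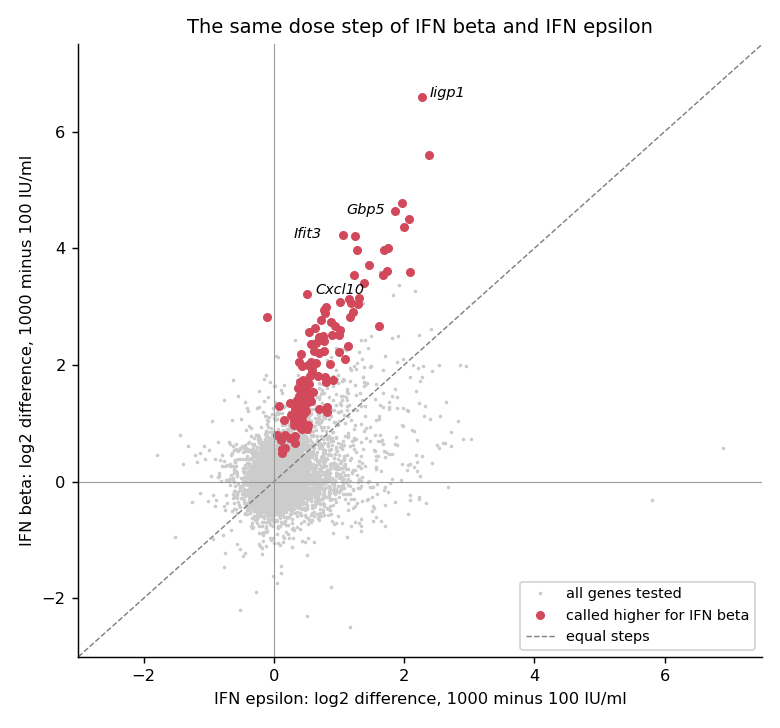
Log2 difference between 1000 and 100 IU/ml of IFN beta (y axis) and of IFN epsilon (x axis), 1 point per gene. Grey points are the 14425 genes tested, red points the 121 called higher for IFN beta, and the dashed line marks equal steps. All 121 red points lie above the line, and no difference between the steps was called.

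The levels behind both steps are given here for 4 genes. Ifit3 had levels of 4.58, 5.73 and 7.05 with 1000 IU/ml IFN beta and 0.20 and 1.70 with 100 IU/ml, beside 6.02, 6.40 and 6.84 with 1000 IU/ml IFN epsilon and 4.04, 5.69 and 6.36 with 100 IU/ml. The IFN beta step was larger by 3.17 ± 0.78 (adjusted p = 0.631). Cxcl10 gave 6.22, 6.48 and 6.79 with 1000 IU/ml IFN epsilon and 4.79, 6.33 and 6.85 with 100 IU/ml, where the doses overlapped, and its IFN beta step was larger by 2.70 ± 0.64 (adjusted p = 0.551). Isg15 gave 7.07, 7.20 and 7.58 with 1000 IU/ml IFN epsilon and 6.67, 7.03 and 7.41 with 100 IU/ml, which overlapped as well. Iigp1 gave 2.68, 3.36 and 2.91 with 1000 IU/ml IFN epsilon and -0.60, 1.39 and 1.37 with 100 IU/ml, without overlap, and its IFN beta step was larger by 4.32 ± 1.15 (adjusted p = 0.658).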

How the data were processed

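RNA was measured on 24 arrays on 3 slides, and 22 of them gave the 19 samples used, as each untreated sample had 2 arrays, which were averaged. The deposited scanner files hold an intensity per spot that Agilent Feature Extraction 11.0.1.1 subtracted background from, per the file headers, with no normalization between arrays. A deposited table of log2 values served as an alternative. The submitters' processing notes list R 3.6.1 and limma 3.42.0, and how the table was made is not given in the sources used here. The table's columns had medians of 5.73 to 5.79, correlated with log2 of the scanner signal of the same array at 0.988 to 0.995 and were not centred by gene, and whether a constant was subtracted is unknown.

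The processed signal was taken as log2 and scaled to the 75th percentile of its array, without control spots and outlier spots (79 to 280 per array), and 0 spots were saturated. Probes were named through RefSeq accessions in an annotation of GRCm38.p6: 32994 of 56605 probes matched, for 22911 genes. Probes stayed in if at least 2 samples of a group had them well above background, and the brightest kept probe stood for its gene. Among the 124 called genes 44 had several kept probes, all of the same sign in 43, with Carf as the exception. Probes of near-identical copies may share signal: Ifit3 and Ifit3b, Trim30a and Trim30d, Trim34a and Trim34b, Oas1a and Oas1g, the Phf11, Gbp and H2 families.

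Limma 3.58.1 in R 4.3.3 (lmFit, eBayes) fitted 7 groups with the replicate number as a block, on 9 residual degrees of freedom or more, with Benjamini-Hochberg adjustment over all 14425 genes. The number of arrays limits the precision: over all tested genes the 95% confidence interval of the step reached a median of 0.277 to either side, and the widest reached 6.93. Samples of the same replicate number deviated together from their group means (median r = 0.473 over 52 pairs). For the paired IFN beta samples of replicates 1 and 2, r was 0.236 and 0.311. Over 102 pairs of different numbers the median r was -0.209. Deviations from a group mean cancel within the group, so this negative value is partly forced and is no independent comparison. The series design puts replicates on separate dates. For a probe not well above background on any array of a group, the fold is a bound: per array, its own signal or the lowest signal of a probe well above background was taken, whichever was higher, and log2 values were averaged. This bound holds for the main scaling only and takes no account of the spread between samples. The limma procedure was also run on simulated data with known changes. Genes are named in the text if among the 15 largest rises or 5 largest falls, the 3 largest called changes of a list, or a panel of 23; Lgals3bp, the relatives of named genes, Cgas, Sting1, Ifi27 and Tph1 were added after their values were seen. The members, lists and tests were chosen with earlier results of these data known. Some named members of the lists are not reported here. Promoter windows are RefSeq's. Tables were read with data.table (version 1.17.8), statmod 1.5.0 estimated the random block, and Python 3.11.15 with pandas 2.3.3, numpy 2.4.6 and matplotlib 3.10.9 made the motif counts and plots.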

Additional observations from a re-analysis of the deposited data

Results flagged for a closer look

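The 2 arrays that the submitters' labels exclude for an unusually strong response of interferon-stimulated genes were in no comparison above, so the values here describe what the labels already state. On the array of 100 IU/ml IFN beta from the third date, the median of the antiviral effector list was 3.27 (log2) above the untreated sample of that date, and 44 of the 47 genes were above every untreated sample. On the array of 10 IU/ml from that date the median was 3.00, with 45 of 47 genes above every untreated sample. The 1000 IU/ml sample of that date had a median of 3.37, and it exceeded these arrays by a median of 0.09 and 0.40. The other 100 IU/ml samples stood at 1.14 and 1.33 and the other 10 IU/ml samples at 0.33 and 0.38 above untreated cells of their own dates. Of the 47 genes, 41 and 38 were above every untreated sample in these 100 IU/ml samples, and 22 and 16 in these 10 IU/ml samples. In the 1000 IU/ml samples the counts were 44, 46 and 45. These counts were not taken over all tested genes. The cause of the strong response on the 2 excluded arrays was not tested.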

How the results depend on the processing

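The 124 called genes kept their direction under all 20 alternative settings in which they were tested (123 of them under the stricter filter on dim probes). These settings share most samples with the call, so the kept direction is a description. The count of calls for the step was 67 with no replicate block (66 shared with the 124), so the pairing by replicate number moved it; 15 with the slide added to the block, 79 with no filter on dim probes, 0 with the excluded arrays included, 0 with only that of 100 IU/ml included (added after seeing the data; 440 genes at an unadjusted p under 0.05), and 0 in a fit to the 2 IFN beta groups only. Leaving out samples gave 0 to 330. Other settings gave 113 (median scaling, 70 shared, with the median of all genes at -0.17) to 173 (random replicate block). Normexp used the median spot signal, as the files analysed hold no mean. For the difference from the IFN epsilon step, 6 genes were called after median scaling and 0 to 93 when samples were left out. For the upper minus the lower step these were 3 and 0 to 230. The antiviral median stayed between 0.88 (excluded arrays included) and 1.69, and between 1.31 and 1.69 when samples were left out. Ifnar1, near 0, turned negative with no replicate block (-0.29), a random block (-0.025), median scaling (-0.12), the 2 groups only (-0.018), and lay between -0.10 and 0.12 when samples were left out (-0.049 without the 1000 IU/ml sample of replicate 2 and -0.018 without replicate 3). Ifnar2 was -0.025 after median scaling. The causes were not tested.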

Other observations

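Beyond the listed genes, 52 of the 121 genes that rose were in none of the lists, and the genes named in this section were chosen after their values were seen. Uba7, the enzyme that activates Isg15 for its attachment to proteins, had levels of 2.79, 3.10 and 3.73 at 1000 IU/ml, against 1.23 and 1.65 at 100 IU/ml (1.68 ± 0.22, limma adjusted p = 0.00474). Ube2l6, the next enzyme of that attachment, had levels of 2.92, 3.04 and 4.28 at 1000 IU/ml and of 1.40 and 1.49 at 100 IU/ml (1.73 ± 0.21, adjusted p = 0.00443). Trim14, an adaptor of antiviral signalling, differed by 2.24 ± 0.32 (adjusted p = 0.0058) and Samd9l, which restrains protein synthesis, by 1.89 ± 0.25 (adjusted p = 0.00516). Tor3a, an ATPase of the endoplasmic reticulum, had levels of 3.93, 4.64 and 5.85 at 1000 IU/ml and of 1.66 and 2.48 at 100 IU/ml (2.42 ± 0.29, adjusted p = 0.00443). For each of these 5 genes the doses did not overlap, an order found for 7.01% of all tested genes and nearly fixed by the choice of called genes.

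By the start of the symbol, all 4 tested Phf11 genes rose, as did 7 of 10 Oas genes, 4 of 6 Ifit genes, 3 of 6 Slfn genes and 4 of 12 numbered Parp genes. Among all tested genes 0.839% were called higher. Of 42 numbered Trim genes 9 rose, and the family's median difference was -0.04, that of all genes. Of 48 genes starting with Psm, which holds the constitutive proteasome, Psmb9 was the 1 called, and the median was -0.02.

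Probes with no gene name also changed: of 31459 kept probes, tested singly, 186 were called higher and 6 lower, and 48 and 3 of these were among the 10036 unnamed ones.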
